A study of Mus musculus with 2 samples.

Results

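The genes described are 10 effectors and feedback regulators of canonical Wnt signalling, Lef1, Tcf7, Axin2, Nkd1, Rnf43, Znrf3, Notum, Wif1, Apcdd1 and Bambi. They were taken by name from the 32286 features of both count matrices, and all 10 had reads in the kept cells of each library. Droplet single-cell RNA-seq was run on mouse skin epidermis, with a single library for each of 2 genotypes. Control mice carried Involucrin-CREER together with Rosa-SmoM2: a recombinase under the involucrin promoter, active in differentiating keratinocytes, switches on SmoM2, a constitutively active Smoothened that turns on hedgehog signalling. The GOF mice carried both of these alleles and in addition Krt14rtTA, a doxycycline-dependent activator driven from the Krt14 promoter, with a Survivin GOF (gain of function) allele. SmoM2 is thus shared by both groups, and no library without it enters the comparison. The sort of both genotypes took cells with YFP, the tag on SmoM2, with high integrin α6 and without CD34. How many mice were pooled, their age and the time after induction are not given in the sources used here. With 1 library per genotype there is no replicate and no test. Every interval is a 95% interval for counting error alone and does not cover the spread between mice.

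Canonical Wnt ligands bind Frizzled and Lrp5 or Lrp6 receptors, which stabilises β-catenin so that it can act with the DNA-binding factors of the TCF/LEF family. Many direct targets feed back on the pathway: Axin2 is a scaffold of the complex that destroys β-catenin, Nkd1 binds Dishevelled, Rnf43 and Znrf3 are ubiquitin ligases that remove Frizzled from the membrane, and Notum, Wif1, Apcdd1 and Bambi act at the membrane or outside the cell. In skin the pathway is needed for hair follicle induction, and Lef1 marks follicle placodes and matrix. Basal cell carcinoma, the tumour that activated Smoothened causes, shares features of embryonic follicle buds.

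The 250 bases before the transcription start are shown for 2 genes whose levels contrasted, Lef1, which was much higher in hedgehog-high cells, and Axin2, whose level differed little between the states. Both sequences are from RefSeq's GRCm38.p6 start sites, plus strand, at chr3:131110047-131110296 and chr11:108920099-108920348, written 5′ to 3′, with capitals for the letters CTTTG, the core that TCF/LEF sites share.
Lef1: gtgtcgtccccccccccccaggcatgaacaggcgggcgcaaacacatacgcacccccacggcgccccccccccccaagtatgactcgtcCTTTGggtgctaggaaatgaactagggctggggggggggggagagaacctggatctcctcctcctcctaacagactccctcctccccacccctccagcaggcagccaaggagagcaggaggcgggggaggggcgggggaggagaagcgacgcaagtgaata
Axin2: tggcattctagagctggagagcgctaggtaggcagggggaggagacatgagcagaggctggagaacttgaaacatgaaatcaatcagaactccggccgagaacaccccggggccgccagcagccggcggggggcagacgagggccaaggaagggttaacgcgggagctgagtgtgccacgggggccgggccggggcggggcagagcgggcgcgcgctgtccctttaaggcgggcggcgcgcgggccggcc
Start windows were read for 6 of the 10 genes (Lef1, Tcf7, Axin2, Nkd1, Rnf43 and Wif1), and both strands were searched. The RefSeq starts are not always those of the gene coordinates given below. By those coordinates the Nkd1 and Rnf43 windows lie inside the gene, the Wif1 window reaches into it, and the Lef1 window ends short of its start. The core CTTTG was in 2 of the 6, Lef1 and Wif1, each time 161 bases before the RefSeq start, and in 48.8% of all 27025 windows of that length. The longer form CTTTGAT and the versions of it that end in AA, TT or TA, all of which contain the core, were in 0 of the 6 and in 14.9% of all windows. The GLI letters GACCACCCA, the form bound by hedgehog's effectors, were in 0 of the 6 and in 0.207% of all. These counts describe the windows only.

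All 10 genes are protein-coding, and coordinates are those of mm10. Lef1 (ENSMUSG00000027985) lies on the plus strand at chr3:131110471-131224356. Tcf7 (ENSMUSG00000000782) is on the minus strand at chr11:52252371-52283014. Axin2 (ENSMUSG00000000142) lies on the plus strand at chr11:108920349-108950783. Nkd1 (ENSMUSG00000031661) lies on the plus strand at chr8:88521354-88594884. Rnf43 (ENSMUSG00000034177) is on the plus strand at chr11:87662722-87735539 and Znrf3 (ENSMUSG00000041961) on the minus strand at chr11:5276324-5444847. Notum (ENSMUSG00000042988) lies on the minus strand at chr11:120653788-120661175 and overlaps the antisense genes Notumos and Myadml2os, so its few reads are uncertain. Wif1 (ENSMUSG00000020218) lies on the plus strand at chr10:121033960-121100650. Apcdd1 (ENSMUSG00000071847) and Bambi (ENSMUSG00000024232) are both on chromosome 18.

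The control library held 10294 and the GOF library 6494 kept cells, with median depths of 7648 and 12324.5 unique molecular identifiers (UMIs), so shares of cells with a UMI are given after each cell was thinned to 3000 UMIs. Both libraries share 84 barcodes, 20 of them among kept cells. Of 24 clusters, made without the Wnt pathway genes, a melanocyte-like and an immune-like one were set aside, and 10121 control and 6317 GOF keratinocytes remained. Clusters whose summed level of the hedgehog targets Gli1, Ptch1 and Hhip was at least 2 times the median over keratinocyte clusters (75.2 CPM, a gene's UMIs scaled to a common total of 1000000) are called hedgehog-high. These were clusters 5, 7, 8, 14, 15 and 23, with 4165 control cells (41.2% of keratinocytes) and 1392 GOF cells (22.0%). Cluster 7 (1714 control and 3 GOF cells) and cluster 23 (2 control and 66 GOF cells) came almost wholly from 1 library. Library differences are therefore given also for the 4 hedgehog-high clusters that both libraries fill, with 2449 control and 1323 GOF cells. In hedgehog-high cells Birc5, which encodes Survivin, came to 68.4 CPM (control) and 928 CPM (GOF). YFP stood at 23.1 and 30.1 CPM in hedgehog-high cells, against 4.23 and 0.94 CPM in hedgehog-low ones. The libraries also differed in sex: 73.0% of control hedgehog-high cells had Y-linked and no Xist UMIs (male-called), against 25.2% in the GOF library.

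In both libraries the state with high hedgehog output carried more of the transcription factors Lef1 and Tcf7, of the Dishevelled-binding feedback gene Nkd1 and of the secreted inhibitor Wif1. Axin2, the usual readout of canonical Wnt signalling, did not follow them in the control library. Of the 9 genes with at least 50 UMIs over the states, 5 were at least 2-fold higher in hedgehog-high cells of the control library, where 9.28% of all genes were, and none was 2-fold lower (3.8% of all genes). In the GOF library 5 of 9 were at least 2-fold higher (13.5% of all genes) and none 2-fold lower (8.24%). Lef1, Nkd1, Tcf7 and Wif1 made up 4 of the 5 each time, with Bambi (control) or Znrf3 (GOF) as the fifth. The median log2 difference of the 9 genes was 1.04 for control and 1.28 for GOF cells, beside 0.14 and 0.25 for all genes tested.

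**Figure D1:**
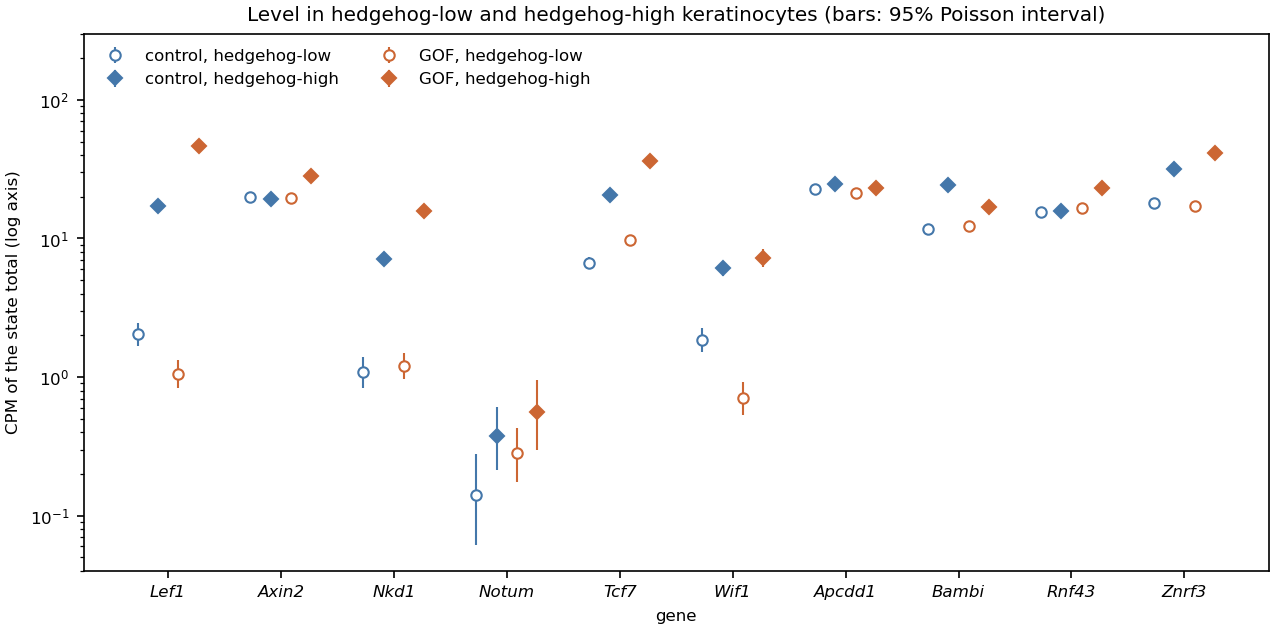
Level of each gene in CPM of the state's UMIs (log axis), in hedgehog-low (open circles) and hedgehog-high keratinocytes (filled diamonds) of the control (blue) and GOF (orange) library. Bars are exact 95% Poisson intervals, for counting error only. Lef1, Nkd1, Tcf7 and Wif1 stand apart between the states in both libraries, and Apcdd1 lies near 23 CPM in all 4 groups.

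Among the transcription factors, Lef1 differed most between the states. Lef1 was at 2.03 CPM in hedgehog-low and 17.1 CPM in hedgehog-high control cells, an 8.41-fold difference (interval 6.90 to 10.3). In the GOF library Lef1 was at 1.06 and 46.2 CPM, a 43.6-fold difference (34.7 to 55.5). The intervals of the states did not overlap in either library. Hedgehog-high cells held 86.3% of the keratinocyte UMIs of Lef1 (control) and 93.2% of them (GOF), while they held 42.9% and 23.9% of the UMIs of all genes. Tcf7, a relative of Lef1 that also pairs with β-catenin, was at 6.70 and 20.5 CPM in the control (3.06-fold, 2.71 to 3.46). In the GOF library Tcf7 was at 9.70 and 35.9 CPM (3.70-fold, 3.35 to 4.10). For both factors the higher state was the same in each library.

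The feedback genes that act inside the cell or on Frizzled split into a strongly state-bound one and several with small differences. Nkd1 was at 1.10 CPM in hedgehog-low and 7.16 CPM in hedgehog-high control cells (6.53-fold, 4.95 to 8.72), and at 1.21 and 15.7 CPM in the GOF library (13.1-fold, 10.3 to 16.6). Znrf3 was at 18.1 and 31.9 CPM in the control (1.76-fold, 1.62 to 1.91) and at 17.2 and 41.6 CPM in the GOF library (2.42-fold, 2.22 to 2.63). Its partner Rnf43 was at 15.4 and 15.8 CPM in the control, where the interval of the ratio included 1 (0.92 to 1.13). In the GOF library Rnf43 was at 16.6 and 23.2 CPM (1.40-fold, 1.26 to 1.55). Axin2 was at 19.9997 CPM in hedgehog-low and 19.4 CPM in hedgehog-high control cells, a ratio of 0.97 (0.89 to 1.06). In the GOF library Axin2 was at 19.7 and 28.1 CPM (1.42-fold, 1.30 to 1.56). Over all clusters, the control levels of Axin2 and Rnf43 in the states thus overlapped within counting error, while the GOF levels did not. In the clusters of both libraries Rnf43 was higher in hedgehog-high cells of both, 1.37-fold in control (1.21 to 1.55) and 1.44-fold in GOF cells (1.29 to 1.60). Axin2 had ratios of 1.08 (0.96 to 1.20) and 1.49 (1.34 to 1.64) there.

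Of the secreted and membrane inhibitors, Wif1, which binds Wnt ligands, differed most between the pooled states. Wif1 was at 1.86 and 6.08 CPM in hedgehog-low and hedgehog-high control cells (3.27-fold, 2.60 to 4.15), and at 0.71 and 7.27 CPM in the GOF library (10.2-fold, 7.48 to 14.2). It was uneven within the hedgehog-high state, with 25.7 and 29.6 CPM in cluster 8 but 1.34 and 0 CPM in cluster 5. Bambi, a decoy receptor of the TGF-β family that also touches Wnt signalling, was at 11.8 and 24.2 CPM in the control (2.06-fold, 1.86 to 2.27) and at 12.4 and 16.8 CPM in the GOF library (1.36-fold, 1.20 to 1.53). Apcdd1, a membrane inhibitor that binds Wnt ligands and their receptors, was at 22.6 and 24.6 CPM in the control and at 21.3 and 23.0 CPM in the GOF library. Both of its ratios, 1.09 and 1.08, had intervals that included 1. Notum, an extracellular enzyme that strips the lipid from Wnt ligands, was scarce, with 8 and 16 UMIs in the control states and 21 and 13 in the GOF states. Its ratio was 2.66 in the control, with an interval from 1.08 to 7.19, and its level is not compared further. In the clusters of both libraries alone, Znrf3 also passed 2-fold in the control (2.40-fold), which made 6 of 9 genes there (13.1% of all genes) and 5 of 9 in the GOF library (12.8%). There again 0 of the 9 genes were 2-fold lower, beside 7.56% (control) and 8.65% (GOF) of all genes.

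Within the hedgehog-high state the genes did not run together, and each cluster that both libraries filled had its own combination. Cluster 5 was led by Dio2, Pi15, Igfbp5 and Nptx1, cluster 8 by Ccer2, Adamts1, Ncald and Ncam1, cluster 15 by Col14a1 and Basp1, and cluster 14 by mitotic genes such as Cenpf and Mki67. In all 4 clusters each of the 3 hedgehog targets was at least 2-fold above the other cells. Clusters were made from other genes of the same cells, so contrasts between them are descriptions.

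**Figure D2:**
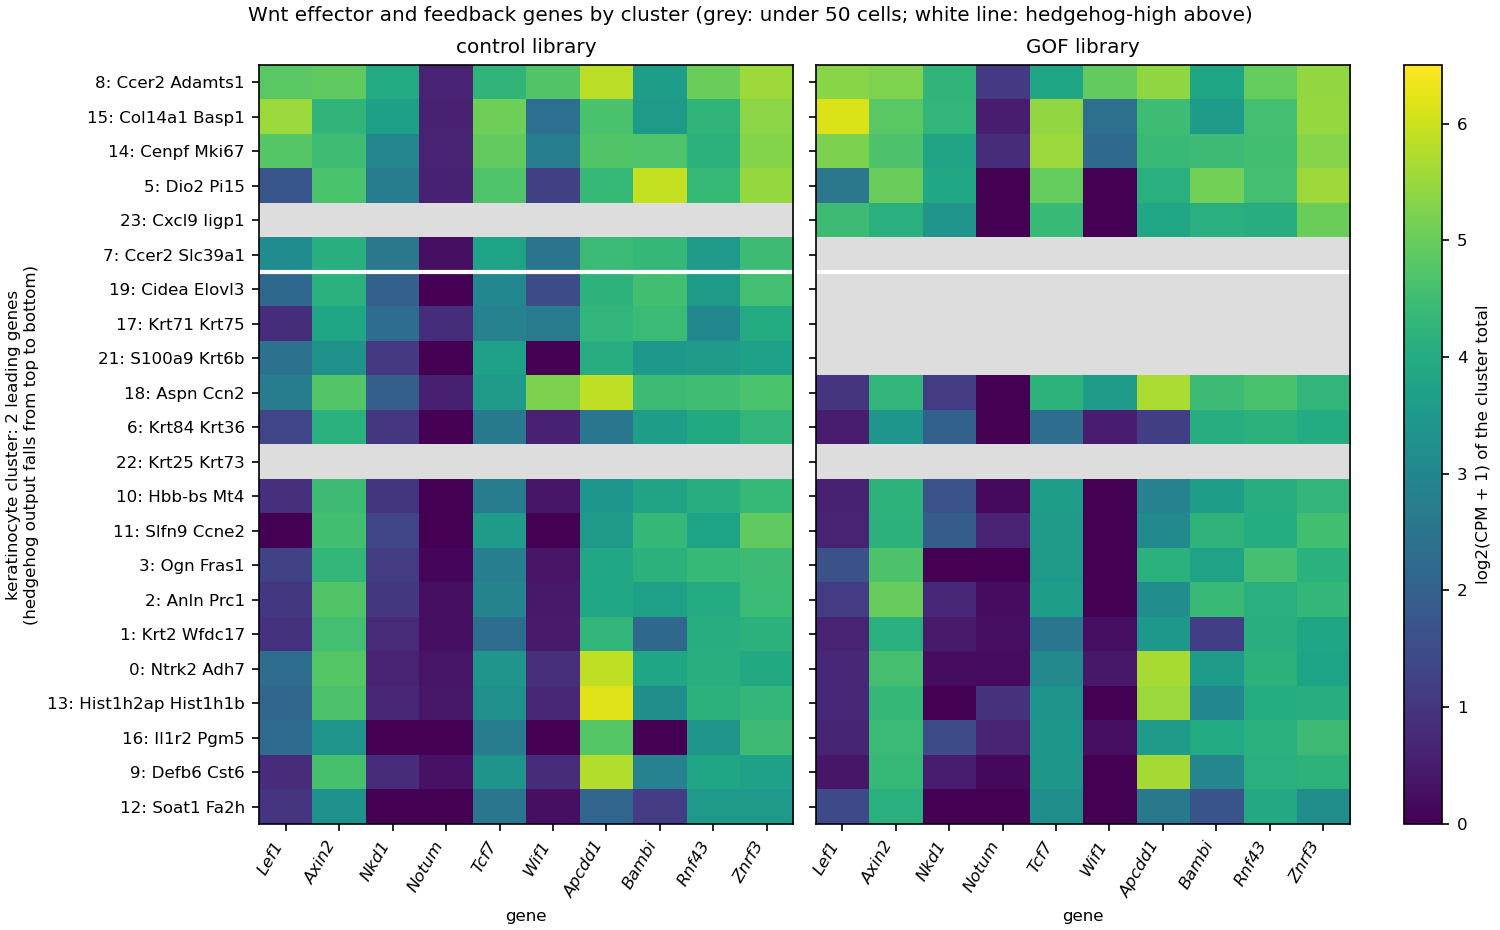
Level of each gene, as log2 of CPM plus 1, in every keratinocyte cluster of the control (left) and GOF (right) library. Clusters are ordered by hedgehog output from top to bottom, the white line ends the hedgehog-high ones, and grey marks clusters with under 50 cells in that library. Lef1 is brightest in cluster 15 and dark in cluster 5, where Bambi is bright, and Apcdd1 is bright also in hedgehog-low clusters 18, 0, 13 and 9.

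Lef1 was highest in cluster 15, with 44.6 CPM (39.4 to 50.3) in the control library and 70.4 CPM (65.2 to 76.0) in the GOF one. It came to 27.7 and 39.3 CPM in cluster 8 and to 26.7 and 36.5 CPM in the cycling cluster 14, 2 levels whose intervals overlapped in both libraries. In cluster 5 it was only 2.34 CPM (1.28 to 3.93) and 4.94 CPM (2.63 to 8.44), although all 3 hedgehog targets were high there. Lef1 was 19.0-fold higher in cluster 15 than in cluster 5 in the control (11.1 to 35.3) and 14.3-fold in the GOF library (8.28 to 26.9). After thinning, a Lef1 UMI was found in 13.3% (control) and 15.4% (GOF) of cluster 15 cells, against 0.87% and 2.04% in cluster 5. Before thinning the shares were 30.4% and 49.2% in cluster 15 (median depths 8616 and 12819 UMIs) and 1.67% and 5.05% in cluster 5 (6170.5 and 11661 UMIs). The sebaceous gland-like cluster 12, taken as a background cell type, had 0.33% and 1.28% after thinning, and 1.32% and 3.40% before it at median depths of 16495 and 22762 UMIs. The intervals of clusters 5 and 12 overlapped in both libraries, so a share of Lef1 cells above that cell type was not detectable in cluster 5 at this depth. By level, GOF cells of cluster 5 were above the 1.06 CPM (0.84 to 1.32) of all hedgehog-low GOF cells, while the control intervals, 1.28 to 3.93 and 1.68 to 2.44, overlapped.

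Tcf7 did not share that gap. Tcf7 was at 32.4 and 42.4 CPM in cluster 15, at 29.6 and 44.6 CPM in cluster 14 and at 24.9 and 30.01 CPM in cluster 5. Its lowest level of the 4 was in cluster 8, with 18.2 and 13.4 CPM, so that cluster 15 exceeded cluster 8 by 1.79-fold (1.34 to 2.41) in the control library and 3.17-fold (2.34 to 4.37) in the GOF one. Cluster 5 thus carried Tcf7 with little Lef1, and cluster 8 carried Lef1 with less Tcf7.

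The ligand-binding inhibitors Wif1 and Apcdd1 were highest in cluster 8 among the 4 clusters. Sfrp1, a secreted Wnt-binding protein that is not among the 10 genes, was lowest there, though only narrowly in the GOF library. It was at 7.79 and 10.9 CPM in cluster 8, against 32.8 and 28.9 CPM in cluster 5. Cluster 14 had 24.2 and 13.0 CPM and cluster 15 had 14.4 and 11.4 CPM. Wif1 was at 25.7 and 29.6 CPM in cluster 8 and at 4.22 and 4.25 CPM in cluster 15, a 6.08-fold (3.86 to 9.89) and 6.96-fold (4.79 to 10.3) difference. In cluster 15 a single cell gave 40.0% of the control and 65.0% of the GOF UMIs of Wif1. In cluster 5 it had 8 control UMIs and 0 GOF UMIs. Apcdd1 stood at 55.4 and 41.8 CPM in cluster 8, against 23.7 and 21.2 CPM in cluster 15 (2.34-fold and 1.97-fold). Rnf43 was at 32.0 and 30.1 CPM in cluster 8 and at 18.1 and 22.7 CPM in cluster 15. Axin2 was at 29.1 and 37.1 CPM in cluster 8 and at 17.9 and 27.4 CPM in cluster 15 (1.63-fold and 1.35-fold). The ratio of Axin2 between clusters 8 and 5 had an interval that included 1 in both libraries (0.93 to 1.57 and 0.89 to 1.57). In both libraries Wif1, Apcdd1, Rnf43 and Axin2 were higher in cluster 8 than in cluster 15, the reverse of Lef1 and Tcf7.

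Among the 4 clusters Bambi was highest in cluster 5. In cluster 5 it was at 60.3 CPM (control) and 33.4 CPM (GOF), against 10.6 and 10.9 CPM in cluster 15 and 11.5 and 13.1 CPM in cluster 8. The cycling cluster 14 lay between, with 25.3 and 20.9 CPM. The excess of cluster 5 over cluster 15 was 5.66-fold (4.32 to 7.52) in the control library and 3.06-fold (2.27 to 4.10) in the GOF one. Znrf3 was the most even gene over these 4 clusters. It lay between 38.6 and 45.6 CPM in the control and between 39.0 and 46.0 CPM in the GOF library. Over all hedgehog-high control cells Znrf3 was lower, at 31.9 CPM against 41.4 CPM in the 4 clusters together. The GOF levels were 41.6 and 42.2 CPM. Nkd1 was at 14.7 and 18.1 CPM in cluster 8 and at 12.0 and 18.3 CPM in cluster 15. It was lower in cluster 5 of the control (5.69 CPM) than in cluster 8 (2.58-fold, 1.64 to 4.11), while in the GOF library its level of 13.7 CPM there gave an interval that included 1. Clusters 8 and 15 came out as 1 cluster at a lower resolution and when the Wnt genes were kept for clustering, so the split between them depends on those choices.

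The same genes were read by the number of hedgehog target UMIs in each thinned cell, from 0 to 6 or more. Clusters entered here only to choose the keratinocytes, but the targets are the same 3 that define the states. Lef1 was at 2.66 CPM in control cells without such a UMI, at 17.4 CPM with 2 and at 41.9 CPM (25.6 to 64.8) with 6 or more. In the GOF library Lef1 was at 3.61, 47.8 and 47.1 CPM (24.3 to 82.2) in these bins. Nkd1 went from 2.08 to 21.0 CPM in the control and from 1.84 to 19.6 CPM in the GOF library, where 2 target UMIs already came with 17.9 CPM. Znrf3 went from 18.8 to 48.2 CPM and from 20.5 to 54.9 CPM. Bambi was at 13.8 CPM in control cells without a target UMI, at 31.2 CPM with 2 and at 21.0 CPM with 6 or more. Its GOF levels in these bins were 11.9, 24.9 and 27.5 CPM. For Wif1, Bambi, Apcdd1 and Rnf43 the intervals of the lowest and the highest bin overlapped in both libraries. The top bins held only 3 Wif1 UMIs each. For Wif1 and Bambi the intervals with 0 and with 2 target UMIs did not overlap in either library. Wif1 was at 2.66 and 8.10 CPM in these bins of the control and at 2.48 and 9.95 CPM in the GOF library. With 3 target UMIs the GOF level of Wif1 was 3.85 CPM, whose interval overlapped that of the lowest bin. Axin2 was at 20.2 and 27.3 CPM in the outer bins of the control, whose intervals overlapped, and at 20.7 and 54.9 CPM (30.02 to 92.1) in those of the GOF library. The top bins held 159 control and 85 GOF cells, so their intervals are wide.

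**Figure D3:**
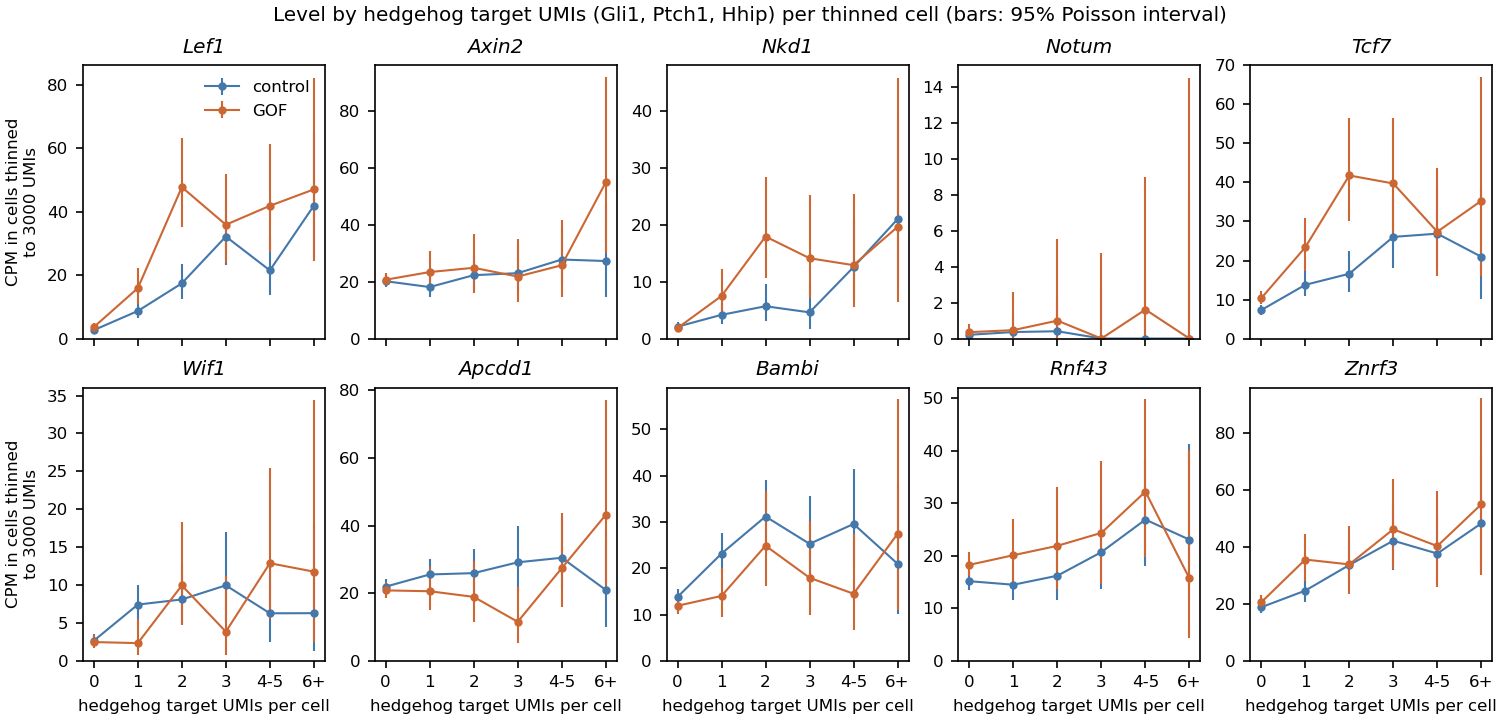
Level of each gene in CPM, in keratinocytes thinned to 3000 UMIs and binned by their summed UMIs of Gli1, Ptch1 and Hhip (control blue, GOF orange; bars are exact 95% Poisson intervals). Lef1 goes from 2.66 to 41.9 CPM in the control and from 3.61 to 47.1 CPM in the GOF library, and Wif1, Apcdd1, Bambi and Rnf43 show overlapping intervals in the outer bins.

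Outside the hedgehog-high state, several of the genes had other sites. Apcdd1 was as high in hedgehog-low keratinocytes of cluster 0 (Ntrk2, Adh7), with 57.9 and 49.3 CPM, and of cluster 9 (Defb6, Cst6), with 53.3 and 48.7 CPM, as in cluster 8. The bulge-like cluster 18 held Apcdd1 at 57.5 and 49.96 CPM. It also held Wif1 at 36.2 and 11.1 CPM, the highest hedgehog-low level of this gene. The control level was above the 25.7 CPM of hedgehog-high cluster 8, and the GOF level was below its 29.6 CPM. Lef1 there was at 5.80 and 0.99 CPM. Cluster 18 had 246 control and 345 GOF cells even though CD34, a marker of bulge cells, had been used to exclude them in the sort.

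The Survivin GOF library was compared with the control within each state. Lef1, Nkd1 and Tcf7 were higher in GOF hedgehog-high cells, and these were 3 of the 9 genes with enough UMIs at 1.5-fold or more, a size that 15.2% of all genes reached. None of the 9 was 1.5-fold lower (7.64% of all genes). The median log2 ratio of GOF to control was 0.53 for the 9 genes and 0.18 for all genes tested. In the 4 clusters of both libraries, Lef1 and Nkd1 remained above 1.5-fold (5.46% of all genes), Bambi was more than 1.5-fold lower (5.58%), and the medians were 0.23 and 0.07.

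In hedgehog-high cells Lef1 was at 17.1 CPM (control) and 46.2 CPM (GOF), a log2 ratio of 1.43 (1.30 to 1.57). In the 4 clusters of both libraries it was at 25.1 and 47.6 CPM, with a log2 ratio of 0.92 (0.78 to 1.07). Within clusters the log2 ratio was 0.66 (0.45 to 0.87) in cluster 15, 0.51 (0.12 to 0.90) in cluster 8 and 0.45 (0.17 to 0.73) in cluster 14. In cluster 5 it was 1.07 from 14 and 13 UMIs, with an interval that included 0. With the 4 clusters weighted equally it was 0.58. The pooled ratio thus shrank at each step, while all 4 clusters had the higher level in the GOF library. The clusters' shares differed with it: cluster 15 made up 23.8% of control and 44.7% of GOF cells of the 4 clusters, and cluster 5 made up 34.1% and 14.97%. Control-only cluster 7, with 7.87 CPM of Lef1, entered the pooled control level. Among male-called cells Lef1 had a log2 ratio of 1.88, or 1.31 in the 4 clusters of both libraries.

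Nkd1 was at 7.16 and 15.7 CPM, a log2 ratio of 1.14 (0.91 to 1.36), and at 9.06 and 16.1 CPM in the clusters of both libraries, a log2 ratio of 0.83 (0.58 to 1.09). Its log2 ratio was 1.26 in cluster 5, 0.30 in cluster 8, 0.93 in cluster 14 and 0.61 in cluster 15, and the interval included 0 in cluster 8 alone. Tcf7 was at 20.5 and 35.9 CPM, a log2 ratio of 0.81 (0.67 to 0.95), and 0.43 (0.28 to 0.58) in the clusters of both libraries. Its log2 ratio was 0.59 in cluster 14 and 0.39 in cluster 15, but -0.44 in cluster 8, with an interval from -1.01 to 0.12. In male-called cells of the clusters of both libraries Tcf7 had a log2 ratio of 0.00, so its higher GOF level was not seen there. The GOF library was higher for Nkd1 in all 4 clusters and for Tcf7 in 3 of 4.

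The remaining feedback genes differed less. Axin2 was at 19.4 and 28.1 CPM, a log2 ratio of 0.53 (0.38 to 0.68), and 0.35 (0.18 to 0.53) in the clusters of both libraries. The log2 ratio of Axin2 was above 0 in all 4 clusters, with 0.61 (0.28 to 0.95) in cluster 15 and intervals that included 0 in the other 3. Rnf43 had log2 ratios of 0.56 (0.39 to 0.73) and 0.23 (0.04 to 0.41). Znrf3 had 0.38 (0.26 to 0.50) over all hedgehog-high cells and 0.03 (-0.10 to 0.16) in the clusters of both libraries, where its levels were 41.4 and 42.2 CPM. The difference of Znrf3 over all hedgehog-high cells was thus not present in the clusters that both libraries fill.

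The inhibitors at the membrane and outside the cell were level or lower. Bambi was at 24.2 and 16.8 CPM, a log2 ratio of -0.52 (-0.70 to -0.36), and at 28.6 and 16.9 CPM in the clusters of both libraries, a log2 ratio of -0.76 (-0.95 to -0.57). Within clusters a lower GOF level was seen in cluster 5, where Bambi was at 60.3 and 33.4 CPM (log2 ratio -0.85, -1.20 to -0.51). The intervals of the other 3 clusters included 0. Cluster 5 also made up 34.1% of control and 14.97% of GOF cells of the 4 clusters. With the 4 clusters weighted equally the log2 ratio of Bambi was -0.46, a 1.38-fold difference that is under the bound of 1.5-fold. Apcdd1 had a log2 ratio of -0.09 (-0.25 to 0.06), and -0.25 (-0.42 to -0.08) in the clusters of both libraries. Wif1 was at 6.08 and 7.27 CPM, with a log2 ratio of 0.26 and an interval from -0.03 to 0.54. Notum gave 16 control and 13 GOF UMIs, so no difference was detectable at this depth (log2 interval -0.61 to 1.71).

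**Figure D4:**
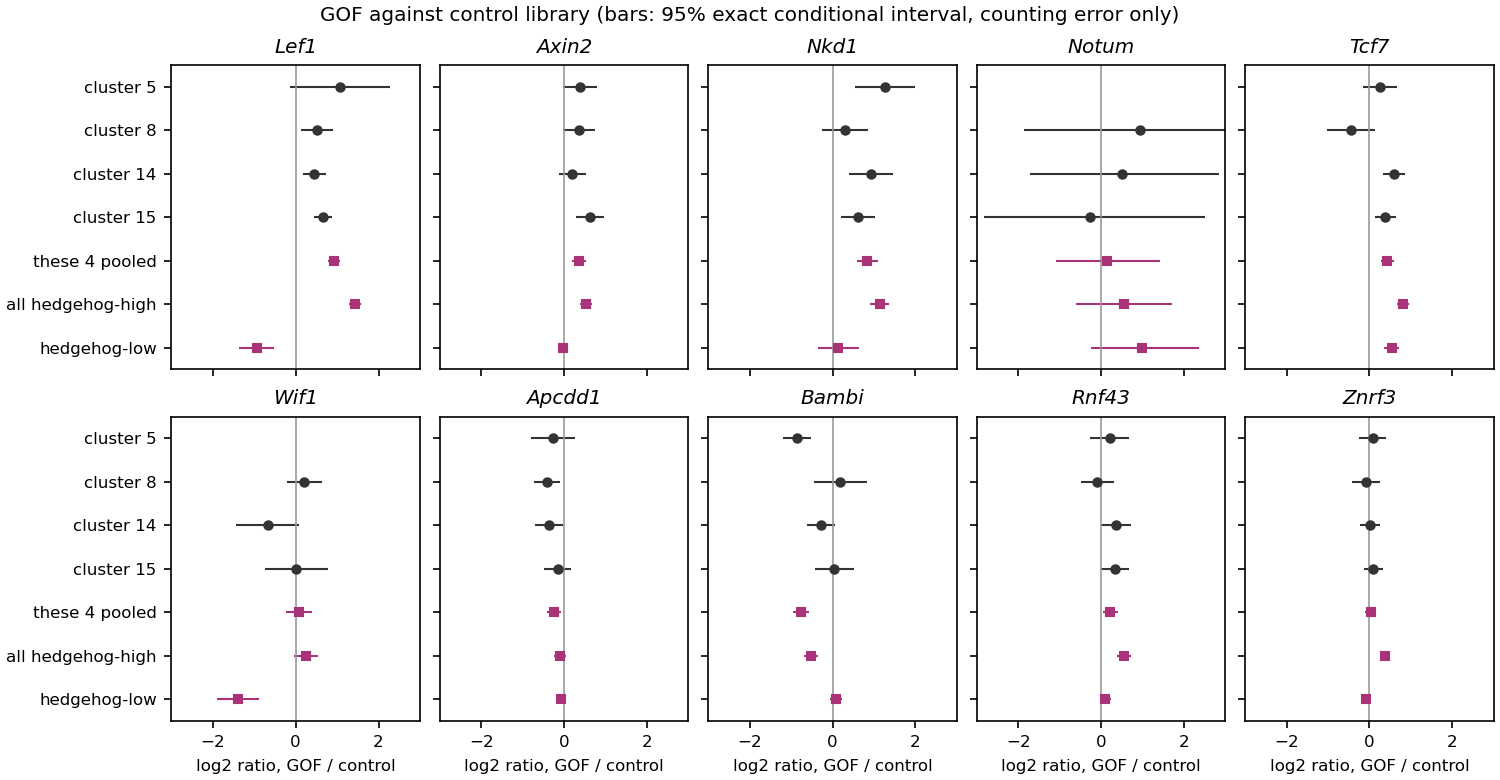
Log2 ratio of the GOF to the control level of each gene, in the 4 hedgehog-high clusters of both libraries (black circles) and in pooled states (purple squares); bars are 95% exact conditional intervals for counting error only, and a row with no point had 0 UMIs in 1 library. Lef1 is above 0 in every hedgehog-high row and at -0.94 in hedgehog-low cells, and Bambi is below 0 in cluster 5.

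In hedgehog-low keratinocytes none of the 9 genes was 1.5-fold higher in the GOF library (6.33% of all genes) and 2 were 1.5-fold lower (5.51%). These were Lef1, at 2.03 and 1.06 CPM with a log2 ratio of -0.94 (-1.37 to -0.52), and Wif1, at 1.86 and 0.71 CPM with a log2 ratio of -1.39 (-1.89 to -0.90). The bulge-like cluster 18 held 75 of the 105 control and 45 of the 53 GOF UMIs of Wif1 in hedgehog-low cells. The hedgehog-low levels of Wif1 thus came mostly from this cluster, which does not show that the other cells were level. Tcf7 was at 6.70 and 9.70 CPM (log2 ratio 0.53, 0.35 to 0.72). Axin2, Nkd1, Apcdd1, Bambi, Rnf43 and Znrf3 had log2 ratios between -0.09 and 0.14 whose intervals included 0. The median log2 ratio was -0.02 for the 9 genes and 0.08 for all genes. These values include the hedgehog-low clusters 3, 16, 17 and 19, which came almost wholly from 1 library. In the hedgehog-low clusters of both libraries Bambi had a log2 ratio of 0.24 (0.06 to 0.42) and Rnf43 one of 0.16 (0.008 to 0.31). The intervals of Axin2, Nkd1, Apcdd1 and Znrf3 included 0 there too. Lef1 and Wif1 stayed lower there, with log2 ratios of -0.83 and -1.31. The hedgehog targets moved beside Lef1: over all hedgehog-high cells Ptch1 was at 377 and 581 CPM, Gli1 at 55.9 and 69.4 CPM and Hhip at 57.8 and 114 CPM. In hedgehog-low cells Ptch1 was at 46.3 and 18.4 CPM and Gli1 at 9.41 and 2.99 CPM, but Hhip at 7.34 and 17.7 CPM. In the hedgehog-high clusters of both libraries Ptch1 was at 585 and 598 CPM and Gli1 at 80.1 and 71.6 CPM, while Hhip was at 89.1 and 119 CPM. Their part in the differences of Lef1 was not tested. Levels of Lef1 and Wif1 in hedgehog-low cells were low and rested on 115 and 79 UMIs and on 105 and 53 UMIs. After thinning, the shares of hedgehog-low cells with a Lef1 UMI overlapped, at 0.44% (0.29 to 0.64) in control and 0.41% (0.25 to 0.63) in GOF cells.

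Markers of other cell types were read in the same cells. Of the 8 fibroblast markers, Dcn alone gave 1032 of 1084 CPM in control and 2494 of 2517 CPM in GOF hedgehog-high cells, and in the clusters of both libraries it was at 1436 and 2548 CPM. Dcn was thus higher on the side where Lef1, Nkd1 and Tcf7 were higher, and its part in the results was not tested. The other 7 fibroblast markers came to little beside it, and the dermal papilla list summed to 4.003 and 4.06 CPM. The 7 melanocyte markers summed to 144 CPM in control and 25.4 CPM in GOF hedgehog-high cells, but to 34.6 and 25.9 CPM in the clusters of both libraries. The immune list summed to 58.8 and 75.9 CPM, mostly Cd74, and the T cell list to 38.6 and 37.6 CPM, mostly Trbc2. Cd3d was at 0 in control and Cd3e at 0 in GOF cells.

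The wider pathway was read from a list of 102 Wnt genes in 9 groups, all of them in the matrices. Of the 76 with at least 50 UMIs over the states in each library, 12 were at least 2-fold higher in hedgehog-high cells of both libraries, against 7.74% of all genes, and none was 2-fold lower in both (3.16%). Besides Lef1, Tcf7, Wif1 and Nkd1 these were the ligand Wnt7b, all 3 R-spondin receptors of the Lgr family, the Dickkopf receptor Kremen2 and the Frizzled-retaining protein Shisa2. The other 2, Wnt6 and the ectodysplasin receptor Edar, are named after their values were seen. Lgr5, a receptor of follicle stem cells, was 8.54-fold (control) and 19.0-fold (GOF) higher. No receptor of the 14 Frizzled, Lrp and co-receptor genes and none of the 14 signal transduction genes passed 2-fold in both libraries.

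Between libraries, 15 of the 77 list genes with enough UMIs were at least 1.5-fold higher in GOF hedgehog-high cells and 4 were 1.5-fold lower, beside 15.2% and 7.64% of all genes. Over all hedgehog-high cells the shares of the list lie near those of all genes, and the counts per group below are to be read against the same shares. In the clusters of both libraries 10 of these 77 list genes were higher and 7 lower, beside 5.46% and 5.58% of all genes. Both shares of the list were thus above those of all genes there. The list's median log2 ratio over all hedgehog-high cells was 0.33, and that of all genes tested was 0.18.

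Among 11 ligands, 2 were higher and 1 lower, near the 15.2% and 7.64% of all genes. Wnt10b, a ligand of follicle induction, was at 9.89 and 21.9 CPM (log2 ratio 1.14; 0.78 in the clusters of both libraries). Wnt16 was at 6.22 and 0.64 CPM (log2 ratio -3.28). The most abundant ligand by UMIs, Wnt4, was at 238 and 195 CPM, and Wnt7b was at 70.8 and 83.1 CPM. The ligand release genes Wls and Porcn, which escort and acylate Wnt proteins, were within 1.5-fold.

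Among 14 receptors, 3 were higher and none lower, again beside 15.2% and 7.64% of all genes. Fzd3 was at 14.7 and 35.4 CPM (log2 ratio 1.27; 0.91 in the clusters of both libraries). Fzd1 and Lrp6 had log2 ratios of 0.69 and 0.70, which came to 0.50 and 0.41 in the clusters of both libraries. Of the Lgr receptors Lgr6 was higher, at 18.1 and 32.4 CPM. Lgr5 was at 72.9 and 65.2 CPM over all hedgehog-high cells, but at 111 and 66.9 CPM in the clusters of both libraries, a log2 ratio of -0.73 (-0.82 to -0.64).

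Of the 14 signal transduction genes, 2 were higher and 1 lower over all hedgehog-high cells, near the 15.2% and 7.64% of all genes, and none passed 1.5-fold in the clusters of both libraries. Ctnnb1, which encodes β-catenin, was at 358 and 394 CPM, and the destruction-complex scaffold Apc was at 50.5 and 85.6 CPM (log2 ratio 0.76; 0.38 in the clusters of both libraries). Of the 9 TCF relatives and corepressors, Lef1 and Tcf7 were the 2 above 1.5-fold, and Tcf7l2 was at 59.4 and 65.9 CPM.

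Among 10 inhibitors, Kremen2 was higher, at 21.0 and 44.8 CPM (log2 ratio 1.09; 0.77 in the clusters of both libraries), and Sfrp1, a secreted Wnt-binding protein, was lower (log2 ratio -0.64). In the clusters of both libraries the lower ones were 3, Sfrp1, Shisa2 and Bambi. The most abundant inhibitor by UMIs, Sostdc1, was at 376 and 516 CPM. Among other targets, Tnfrsf19 was at 70.6 and 143 CPM (log2 ratio 1.02; 0.66 in the clusters of both libraries). Myc was at 27.1 and 11.0 CPM (log2 ratio -1.30; -0.73 in the clusters of both libraries). Nkd2, the scarce relative of Nkd1 and named after its values were seen, was at 1.11 and 1.28 CPM over all hedgehog-high cells, with a log2 ratio of 0.21 (-0.50 to 0.90). In the clusters of both libraries, where it is below the minimum of 50 UMIs, it was at 0.35 and 1.35 CPM (log2 ratio 1.95, 0.79 to 3.28). The list therefore held genes on both sides in each of its inhibitor, ligand and target groups.

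**Figure D5:**
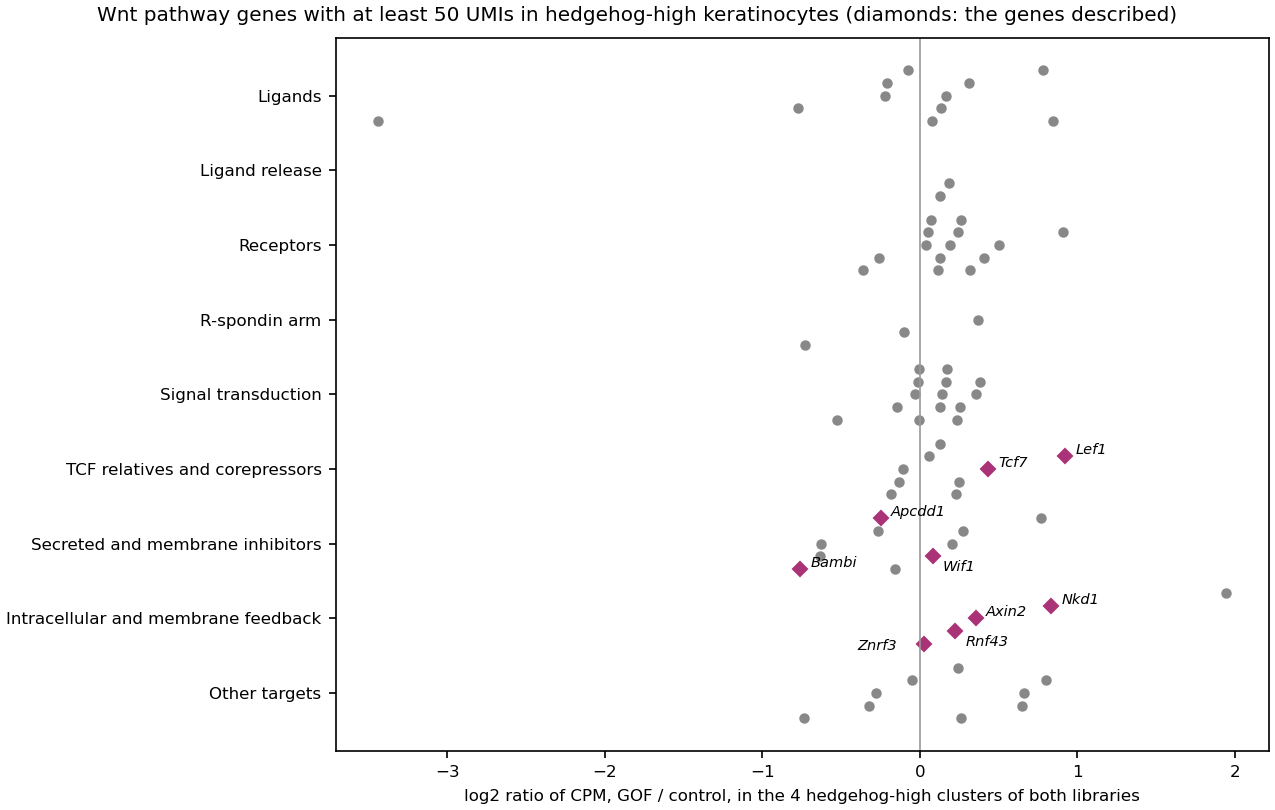
Log2 ratio of the GOF to the control level, in the 4 hedgehog-high clusters of both libraries, of the 77 Wnt pathway genes with at least 50 UMIs in hedgehog-high keratinocytes, by group. Purple diamonds are the 9 genes described, and their vertical offset within a group has no meaning. Lef1 and Nkd1 lie at 0.92 and 0.83 and Bambi at -0.76.

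Across 37 profiles, each a cluster in 1 library, the genes' log2 levels were correlated with those of 10490 others. The profiles share 2 libraries and differ in depth, so Pearson's r is a description. Lef1 was most like Sox5 (0.93), Col14a1 (0.92) and Gxylt2 (0.91), and Nkd1 most like Fam110b (0.93), Sdc3 (0.91) and Arl15 (0.91). Wif1 was most like Ncald (0.89), Krtap17-1 (0.88) and Ncam1 (0.88), and Apcdd1 most like Lifr (0.94), Aopep (0.91) and Adgrl3 (0.91). Tcf7 was most like Srsf9 (0.91), Znrf3 most like Arhgap33 (0.92) and Rnf43 most like Rsbn1 (0.89). Axin2 reached 0.81 with Arhgef26 and Bambi 0.75 with Zc3hav1l. Among the 9 genes themselves, Nkd1 and Znrf3 were most alike (0.86), followed by Lef1 and Nkd1 (0.78), while Apcdd1 and Bambi were least alike (0.09). Axin2 had r = 0.30 with Lef1 and 0.69 with Rnf43.

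Inside clusters 8 and 15, cells with a Lef1 UMI were set beside cells without one after thinning. In cluster 15 Tcf7 was found in 6.49% of 77 Lef1-positive and 9.74% of 503 Lef1-negative control cells, and the intervals overlapped. Axin2 was found in 7.79% and 4.97% of these cells, with overlapping intervals as well. At this depth no other of the 10 genes was detectably more frequent in Lef1-positive cells of either cluster.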

How the data were processed

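The deposited values are whole-number UMI counts for each gene in each barcode, not normalized; per the file headers, Cell Ranger 6.1.1 produced them. Seurat 4.2.0, R 4.3.0 and mm10 are also listed in the submitters' processing notes. The matrices held 24844 control and 11438 GOF barcodes, and the labels state 8046 cells for the control genotype.

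Cells with at least 1500 genes and at most 10% mitochondrial UMIs were kept (10993 and 6922). The scrublet doublet caller marked 0 by its own threshold, so the top 6% of scores were removed (699 and 428 cells). Clustering used scanpy 1.11.5 (2000 variable genes, 30 components, 15 neighbours, Leiden resolution 1, no integration) without the 102 Wnt genes, Birc5, YFP, mitochondrial, ribosomal protein and sex genes.

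The hedgehog output is a sum over 3 targets; 1 other gene of the planned list is not reported here. UMIs were summed per library and state and scaled to its total as CPM. Genes with at least 50 pooled UMIs were counted, at 2-fold between states and 1.5-fold between libraries. Ratios carry exact conditional, levels exact Poisson and shares Clopper-Pearson 95% intervals. On Poisson counts simulated for hedgehog-high cells (13147 genes) the ratio intervals held the true ratio in 95.5%. The intervals assume such counts, so this checks the calculation and not the spread of UMIs between real cells. Of the wider list, each group's 3 highest genes and its 2 largest ratios could be named. A cluster was library-specific with at least 95% of its cells from 1 library. Coordinates are from GENCODE vM21. The members and lists were chosen with earlier results of these data known.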

Additional observations from a re-analysis of the deposited data

Results flagged for a closer look

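Lef1 had opposite library differences in the 2 keratinocyte states. Its log2 ratio of GOF to control was 1.43 in hedgehog-high cells, from 726 control and 1079 GOF UMIs, and -0.94 in hedgehog-low cells, from 115 and 79 UMIs. Neither interval included 0. After thinning, a Lef1 UMI was found in 4.51% (3.89 to 5.19) of control and 10.7% (9.09 to 12.4) of GOF hedgehog-high cells. In hedgehog-low cells the shares were 0.44% (0.29 to 0.64) and 0.41% (0.25 to 0.63), so the lower GOF level was not seen in the share of cells. The hedgehog target Ptch1, 1 of the 3 that define the states, lay on the same side each time. It was at 377 (control) and 581 CPM (GOF) in hedgehog-high cells and at 46.3 and 18.4 CPM in hedgehog-low ones. Gli1 did the same, but Hhip was higher in GOF cells of both states (7.34 and 17.7 CPM in hedgehog-low ones). In the hedgehog-high clusters of both libraries Lef1 had a log2 ratio of 0.92. There Ptch1 was at 585 and 598 CPM, Gli1 at 80.1 and 71.6 CPM and Hhip at 89.1 and 119 CPM. The part of these targets in the result was not tested. The difference between the states was not tested, because each genotype has 1 library.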

How the results depend on the processing

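No paired analysis was possible because each genotype has 1 library. Each count was recomputed under 18 other settings. The number of genes at least 2-fold higher in hedgehog-high cells stayed between 4 and 6 in the control and at 5 in the GOF library. The number 1.5-fold higher in GOF hedgehog-high cells, 3 as reported, was 5 in male-called cells and 1 with the clusters weighted equally. The number 1.5-fold lower there, 0 as reported, was 1 with a hedgehog bound of 3 times the median, with median-of-ratios scaling, without cycling clusters, without library-specific clusters, after thinning to 3000 UMIs, and in both settings chosen after seeing the data (library-specific clusters left out with male-called cells or with median-of-ratios scaling). In hedgehog-low cells the number 1.5-fold higher, 0 as reported, was 1 with a minimum of 10 UMIs, with no minimum, without cycling clusters and after thinning, and the number 1.5-fold lower, 2 as reported, was 1 after thinning and 3 with a hedgehog bound of 3 times the median or a Leiden resolution of 0.5. The causes were not tested. Median-of-ratios scaling lowered log2 ratios by 0.20 in hedgehog-high cells, or by 0.07 without library-specific clusters. In hedgehog-high cells the log2 ratio of GOF to control was above 0 in 18 of 18 settings for Lef1 (0.58 to 1.88), Nkd1 (0.68 to 1.25), Axin2 (0.29 to 0.77) and Tcf7 (0.00 to 1.02), and below 0 in all 18 for Bambi (-0.98 to -0.33). Znrf3 ran from -0.04 to 0.45, and Wif1 from -0.03, with the top 6% of doublet scores kept, to 0.85. Depth limits Notum, with 58 UMIs in all keratinocytes, and Wif1 and Lef1 in single hedgehog-low clusters.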

Other observations

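Some of the highest levels of these genes were in small clusters that the pooled states do not show, or in cells outside the keratinocytes. The inner root sheath-like cluster 22, led by the sheath keratins Krt25 and Krt73, had only 22 control and 17 GOF cells and a hedgehog output under the bound, so its cells count among the hedgehog-low ones. Lef1 stood there at 72.2 CPM (43.5 to 113) in the control and 107 CPM (68.9 to 160) in the GOF library, as high as in any hedgehog-high cluster. Bambi was at 38.0 CPM from 10 UMIs in the control and at 291 CPM from 65 UMIs in the GOF library. Apcdd1 was at 41.8 and 76.1 CPM, and a single cell gave 58.8% of its 17 GOF UMIs. These are too few cells to compare the libraries.

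The melanocyte-like cluster 4, which is in neither state, with 113 control and 125 GOF cells, held more Axin2 and Nkd1 than any of the 4 hedgehog-high clusters of both libraries. Axin2 was at 46.8 and 54.0 CPM and Nkd1 at 28.4 and 31.1 CPM. Lef1 in these cells was at 13.0 and 19.6 CPM, below clusters 8, 14 and 15. Notum was at 0.77 CPM from 1 UMI in the control and at 4.302 CPM from 9 UMIs in the GOF library. The sebaceous gland-like cluster 12 was at the other end, with 0 Nkd1 UMIs in 303 control and 235 GOF cells and Bambi at 1.18 and 2.20 CPM.

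Control-only cluster 7 had an intermediate hedgehog output (186 CPM, against 598 to 947 CPM in clusters 5, 8, 14 and 15). Lef1 was at 7.87 CPM, Nkd1 at 4.97 CPM and Tcf7 at 12.6 CPM in its 1714 control cells, each between the hedgehog-low level of the control and the level of cluster 15. Beside cluster 5, whose hedgehog output was higher, Lef1 did not keep this order. Control cells of cluster 5 had Lef1 at 2.34 CPM, Nkd1 at 5.69 CPM and Tcf7 at 24.9 CPM. GOF-only cluster 23, led by interferon-inducible genes such as Cxcl9 and Iigp1, had Lef1 at 20.9 CPM and Znrf3 at 32.2 CPM in 66 cells.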
